A study of Vulpes vulpes with 48 samples.

Results

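ENSCAFG00000001721, ENSCAFG00000001978, ENSCAFG00000005289 and ENSCAFG00000006875 are 4 genes that were lower in the prefrontal cortex of tame foxes than in that of aggressive foxes. They were picked from the measured cortex difference itself, by dog gene identifier, and are 4 of the 13202 identifiers listed in either of the deposited count tables; all 4 stand in both tables. The fox gene table at hand (RefSeq assembly VulVul3) matched 0 of the 13202 identifiers and the files pair no identifier with a name, so symbol, function, position and sequence are not given for any of them. Poly(A) transcripts were counted in right-side brain tissue of male silver foxes (Vulpes vulpes) aged 1.5 years that had been bred either for tameness or for aggression. Prefrontal cortex gave 12 libraries of each line, and basal forebrain gave 10 tame and 12 aggressive libraries. The tame forebrain libraries labelled ID488 and ID490 are not analysed here. The labels give no treatment, no sequencing batch and no link between the cortex and forebrain libraries of a fox.

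Silver foxes are a colour form of the red fox, and the lines come from a long-running selection programme on farm-bred animals in which the response of a fox to an approaching human was the trait under selection. The prefrontal cortex is the front part of the frontal lobe and is known for its part in the control of behaviour and in social decisions. The basal forebrain lies beneath it and holds, among other cells, the cholinergic neurons that project to the cortex. Each library is RNA of a piece of tissue, so fewer cells of a type and less RNA per cell cannot be told apart in any value below. The tissue labels could not be checked against marker genes, since no gene could be matched to a symbol.

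Library totals ran from 6.23 to 17.2 M counts (M, 1000000), with group medians between 9.71 and 11.7 M. Levels are given as CPM, counts per 1000000 counts of the library, scaled over all 46 libraries with edgeR's TMM factors (trimmed mean of M-values). CPM is not corrected for gene length, so levels are compared between groups and not between genes. Tame cortex libraries ID182, ID186, ID187, ID190 and ID191 stood apart from the rest: their TMM factors ran from 0.705 to 0.940, while those of the other 19 cortex libraries ran from 0.947 to 0.997. Their totals, 8.65 to 15.5 M counts, lay within the range of the other libraries. Fold changes, group means and pair counts that use tame cortex are therefore given with and without these 5 libraries.

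The number of counts behind these values differed between the genes. Median counts per library in aggressive cortex were 147 for ENSCAFG00000001721, 102 for ENSCAFG00000001978, 22.5 for ENSCAFG00000005289 and 26.5 for ENSCAFG00000006875. In tame cortex they were 83, 49, 5.5 and 2.5. None of the 4 had a fractional count in either table, and none shared its values with another gene, so neither sign of reads split between similar genes was seen for them. All 4 passed the filter on low counts (minimum count 10) in both regions. ENSCAFG00000005289 and ENSCAFG00000006875 passed it in the cortex through the aggressive libraries: 7 and 9 of the 12 tame cortex libraries had fewer than 10 counts.

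**Figure D1:**
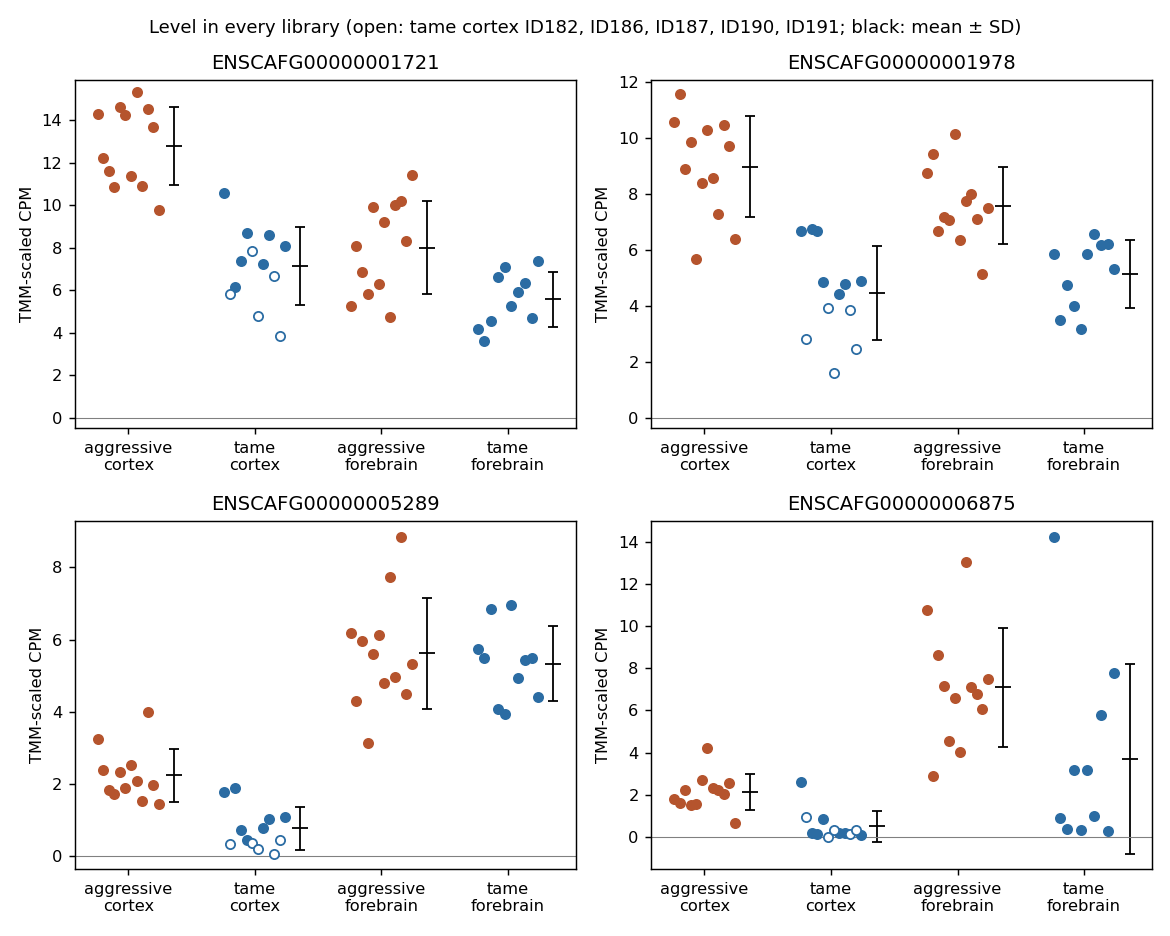
Level of each gene (y axis, TMM-scaled CPM) in every library of the 4 line and region groups (x axis), with the mean and SD of the group in black and the 5 tame cortex libraries that stood apart as open points. Tame cortex points lie mostly below aggressive cortex points for all 4 genes, while the forebrain groups of ENSCAFG00000005289 lie over each other and the tame forebrain points of ENSCAFG00000006875 spread from 0.293 to 14.2 CPM.

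The levels in the cortex are those by which the genes were picked, and they are given as a description, without a test. ENSCAFG00000001721 was measured at 9.75 to 15.3 CPM in aggressive cortex (median 12.95) and at 3.83 to 10.6 CPM in tame cortex (median 7.31). The groups overlapped through a single tame library, ID181, and the other 11 tame libraries lay below the lowest aggressive library. Group means were 12.8 ± 1.85 and 7.14 ± 1.84 CPM (SD, n = 12 each), and the log2 fold change of tame over aggressive was -0.83 (SE 0.13). Without the 5 libraries the 7 tame libraries averaged 8.11 ± 1.41 CPM (SD, n = 7) and the log2 fold change was -0.66 (SE 0.11), with 6 of the 7 below the lowest aggressive library.

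ENSCAFG00000001978 was measured at 5.68 to 11.6 CPM in aggressive cortex (median 9.29) and at 1.59 to 6.75 CPM in tame cortex (median 4.61). All 12 tame libraries lay below the aggressive median, and 9 of them below the lowest aggressive library. Means were 8.97 ± 1.797 and 4.47 ± 1.68 CPM (SD, n = 12 each), and tame over aggressive gave a log2 fold change of -0.9997 (SE 0.18). Here the libraries that stood apart were also the lowest: all 5, at 1.59 to 3.93 CPM, lay under the other 7 tame libraries, at 4.43 to 6.75 CPM. Without them the tame mean was 5.58 ± 1.05 CPM (SD, n = 7) and the log2 fold change -0.70 (SE 0.14).

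ENSCAFG00000005289 was measured at 1.45 to 3.98 CPM in aggressive cortex (15 to 59 counts, median 2.03 CPM) and at 0.0786 to 1.88 CPM in tame cortex (1 to 19 counts, median 0.601 CPM). Tame libraries ID181 and ID183, at 1.78 and 1.88 CPM, reached into the aggressive range, and the other 10 lay below it. Means were 2.25 ± 0.735 and 0.773 ± 0.585 CPM (SD, n = 12 each), with a log2 fold change of -1.53 (SE 0.31). The 5 libraries that stood apart again lay lowest, at 0.0786 to 0.460 CPM, from 14 counts in all. The other 7 tame libraries averaged 1.11 ± 0.535 CPM (SD, n = 7), and with those alone the log2 fold change was -1.03 (SE 0.25).

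ENSCAFG00000006875 was measured at 0.676 to 4.20 CPM in aggressive cortex (7 to 38 counts, median 2.11 CPM) and at 0 to 2.62 CPM in tame cortex (0 to 22 counts, median 0.203 CPM). In tame cortex 11 of 12 libraries were under 1 CPM, against 1 of 12 in aggressive cortex. The exception was tame library ID181, at 2.62 CPM and 22 counts, which lay above the aggressive median. The 0 in tame library ID186 comes from a total of 8.65 M counts, at which a count of 0 allows up to 0.380 CPM (3 counts, counting error only). Means were 2.12 ± 0.853 CPM in aggressive and 0.503 ± 0.727 CPM in tame cortex (SD, n = 12 each), with a log2 fold change of -2.06 (SE 0.42). The tame mean leaned on 1 library: without ID181 the log2 fold change was -2.62. It was -1.89 (SE 0.46) without the 5 libraries that stood apart, the smallest shift of the 4 genes relative to its size.

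Over all 12705 cortex genes tested, 12 were called lower in tame foxes (0.0945% of the genes, edgeR adjusted p under 0.05), and the 4 genes are among them by the way they were chosen. The cortex groups did not overlap, tame below aggressive, for 1 of 12695 genes (0.00788%), which was none of the 4. By size of the fold change they stood 1st, 3rd, 4th and 8th of the 12, and the other 8 had log2 fold changes from -1.79 to -0.45. The 1st and 3rd, ENSCAFG00000006875 and ENSCAFG00000005289, passed the filter on low counts through the aggressive libraries. The genes were picked for low values in this comparison, so these ranks and the medians that follow are descriptions. The median log2 fold change was -1.27 for the 4 genes and 0.018 for all genes. Without the 5 libraries these medians were -0.87 and 0.0018. In that smaller comparison 16 of 12782 genes were called lower in tame foxes (0.125%).

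Set against the other 7 tame cortex libraries, the 5 that stood apart were lower in mean log2 CPM by differing amounts. The difference was -1.41 for ENSCAFG00000005289, -0.93 for ENSCAFG00000001978, -0.50 for ENSCAFG00000001721 and -0.30 for ENSCAFG00000006875, while the median of all genes was 0.017. Larger falls were not rare among all genes: 18.4%, 26.8%, 35.98% and 41.1% of them had a more negative difference than these genes in the same order. What sets the 5 libraries apart was not tested.

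The basal forebrain libraries took no part in the choice of the genes, so the line difference there was tested. The labels do not say whether they come from the same foxes as the cortex libraries, so they may not be independent of that choice. None of the 4 passed the threshold (0 of 4, edgeR quasi-likelihood test with Benjamini-Hochberg adjustment over 12915 genes), where 0.0929% of all genes did and 0.0232% were called lower in tame foxes. Their log2 fold changes were all below 0, with a median of -0.55, while 47.2% of all forebrain genes lay below 0 and the median gene was at 0.0099. At an unadjusted p under 0.05, 1490 of 12915 forebrain genes passed, and ENSCAFG00000001721 and ENSCAFG00000001978 were among them. DESeq2 called 1 of the 4, ENSCAFG00000001978, and 54 of 12664 genes in all. With quality weights, limma-voom called 0 of the 4 and 13 of 12915 genes. No gene had all tame forebrain libraries below all aggressive ones, among these 4 or among the 12695 (0%).

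ENSCAFG00000001978 came closest to the threshold. It was measured at 5.14 to 10.1 CPM in aggressive forebrain (median 7.32) and at 3.17 to 6.57 CPM in tame forebrain (median 5.59). All 10 tame libraries lay below the aggressive median, 4 of them below the lowest aggressive library, and 10 of 12 aggressive libraries lay above the highest tame one. Tame forebrain averaged 5.14 ± 1.22 CPM (SD, n = 10) and aggressive forebrain 7.58 ± 1.36 CPM (SD, n = 12). The log2 fold change was -0.57 (SE 0.14, 95% interval -0.85 to -0.29), with an unadjusted p of 0.000351 and an edgeR adjusted p of 0.138. DESeq2 placed it past the threshold (adjusted p = 0.0222), and over the alternatives tried the adjusted p ran from 0.0222 to 0.214.

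ENSCAFG00000001721 was measured at 4.72 to 11.4 CPM in aggressive forebrain (median 8.19) and at 3.63 to 7.39 CPM in tame forebrain (median 5.59). All 10 tame libraries again lay below the aggressive median, and 4 lay below the lowest aggressive library. Tame forebrain averaged 5.57 ± 1.29 CPM (SD, n = 10) and aggressive forebrain 8.01 ± 2.19 CPM (SD, n = 12), with a log2 fold change of -0.53 (SE 0.16, 95% interval -0.86 to -0.21, edgeR adjusted p = 0.246).

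ENSCAFG00000005289 had nearly the same level in both lines. It was measured at 3.13 to 8.84 CPM in aggressive forebrain (median 5.45) and at 3.93 to 6.96 CPM in tame forebrain (median 5.46), so that the tame range lay inside the aggressive one and 5 of 10 tame libraries were below the aggressive median. Tame over aggressive was -0.082 on the log2 scale (SE 0.15, edgeR adjusted p = 0.817), with a 95% interval of -0.39 to 0.22. A test of cortex against forebrain line differences was not made for these genes, because the cortex difference is the one that picked them.

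ENSCAFG00000006875 spread more than the others in tame forebrain. It stood at 14.2 CPM in tame library ID482, 7.78 in ID541, 5.79 in ID491, 3.18 in ID487 and 3.15 in ID485. In the other 5 tame libraries it stood under 1 CPM: 0.985 in ID489, 0.890 in ID483, 0.380 in ID484, 0.328 in ID486 and 0.293 in ID492, from 3 to 12 counts. In aggressive forebrain the range was 2.87 to 13.0 CPM (median 6.94), and no library was under 1 CPM. The highest tame library lay above every aggressive library, while 5 of 10 tame libraries lay below the lowest aggressive one.

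The SD of log2 CPM of ENSCAFG00000006875 in tame forebrain was 1.79, larger than that of 99.7% of genes (median gene 0.23). In aggressive forebrain it was 0.58, larger than that of 94.4% of genes (median gene 0.20). The gene's SD was also larger than that of 97.1% of genes in aggressive cortex and 87.0% in tame cortex. In tame forebrain 8.11% of genes had a lower mean level, and its SD was not compared with that of genes of like level. Tame forebrain averaged 3.70 ± 4.49 CPM (SD, n = 10) and aggressive forebrain 7.09 ± 2.81 CPM (SD, n = 12). The log2 fold change was -0.97 (SE 0.50, 95% interval -2.01 to 0.069, edgeR adjusted p = 0.454). It was -1.52 without tame library ID482 (edgeR adjusted p = 0.288) and -2.004 in limma-voom with sample quality weights (adjusted p = 0.132), still short of the threshold in both.

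**Figure D2:**
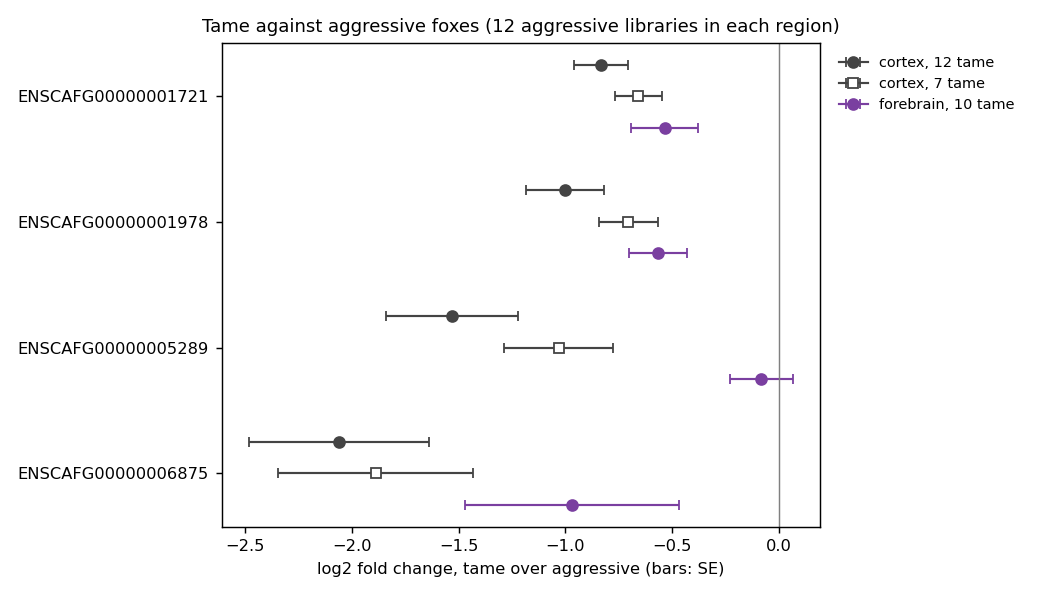
Log2 fold change of tame over aggressive foxes (x axis; bars are SE) for each gene (y axis) in the cortex with all 12 tame libraries, in the cortex with the 7 tame libraries left without the 5 that stood apart, and in the forebrain. All estimates lie below 0, the forebrain estimates lie nearest to 0 for each gene, and that of ENSCAFG00000005289 is -0.082.

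Within each line, forebrain was then compared with cortex. These comparisons share cortex libraries with the one that picked the genes, and a gene picked for a high aggressive and a low tame cortex level has its forebrain over cortex ratio shifted down in aggressive and up in tame foxes. The regions were counted in separate tables, so table and region coincide. In aggressive foxes 3 of the 4 genes passed the threshold, 1 lower and 2 higher in the forebrain, where 32.6% of 12641 genes were called lower and 35.9% higher. With 68.5% of all genes called, a count of 3 in 4 is near the background.

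ENSCAFG00000005289 was higher in the forebrain of aggressive foxes, against the shift from the choice. There 11 of 12 forebrain libraries lay above the highest cortex library, and forebrain over cortex gave 1.33 on the log2 scale (SE 0.16, edgeR adjusted p = 7.91e-08). In tame foxes all 10 forebrain libraries lay above all 12 cortex libraries, as they did for 3.78% of genes. The ratio there was 2.79 on the log2 scale (SE 0.32), and 2.29 (SE 0.24) without the 5 cortex libraries. It is a description without a test, since the low tame cortex level is what picked the gene. The gene had 10 or more counts in 5 of 12 tame cortex and 10 of 10 tame forebrain libraries, so it entered that comparison mainly through the region where it is high.

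ENSCAFG00000006875 was also higher in the forebrain of aggressive foxes. Of the 12 forebrain libraries, 10 lay above the highest cortex library, and forebrain over cortex gave 1.73 on the log2 scale (SE 0.23, edgeR adjusted p = 1.99e-07). In tame foxes it did not pass the filter on low counts. With no filter the ratio there was 2.85 on the log2 scale (SE 0.70), and without the 5 cortex libraries, where it passed the filter, 2.66 (SE 0.89). Both are descriptions for the same reason as above: 2 of the 7 cortex libraries left had 10 or more counts, against 7 of 10 forebrain libraries.

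ENSCAFG00000001721 had the opposite direction. In aggressive foxes it was lower in the forebrain, at -0.67 on the log2 scale (SE 0.13, edgeR adjusted p = 4.16e-05), and all 12 forebrain libraries lay below the cortex median. The choice of the gene shifts this value in the same direction, so the p is not independent of that choice. In tame foxes, where the choice shifts it the other way, the ratio was -0.35 on the log2 scale (SE 0.16, edgeR adjusted p = 0.0860) with all cortex libraries. It was -0.53 (SE 0.15, edgeR adjusted p = 0.00492) without the 5. The call in tame foxes thus changed with the libraries used, and also with the scaling and the test, as given below. Of all 12658 genes, 22.1% were called lower and 21.5% higher in tame forebrain (43.5% in all), and without the 5 libraries 27.3% and 30.4% of 12677 (57.7%). Leaving out ID187 or ID191 alone also brought it past the threshold (edgeR adjusted p = 0.0446 and p = 0.0302), as did scaling by size factors (edgeR adjusted p = 0.0389), DESeq2 (adjusted p = 0.0222) and limma-voom with quality weights (adjusted p = 0.000275).

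ENSCAFG00000001978 did not pass the threshold between regions in either line with all libraries in edgeR. Its log2 fold change of forebrain over cortex was -0.24 in aggressive foxes (SE 0.11, 95% interval -0.47 to -0.0014, edgeR adjusted p = 0.0691). It passed the threshold without cortex library ID233 or ID240 or forebrain library ID530 or ID534 (edgeR adjusted p from 0.0231 to 0.0401). The choice of the gene shifts this value down, so these p-values are not independent of that choice. In tame foxes the log2 fold change was 0.21 (SE 0.21, 95% interval -0.23 to 0.65, edgeR adjusted p = 0.441), and -0.088 (SE 0.16, edgeR adjusted p = 0.661) without the 5 cortex libraries. Its direction in tame foxes thus followed the libraries used, and no direction is given for it.

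**Figure D3:**
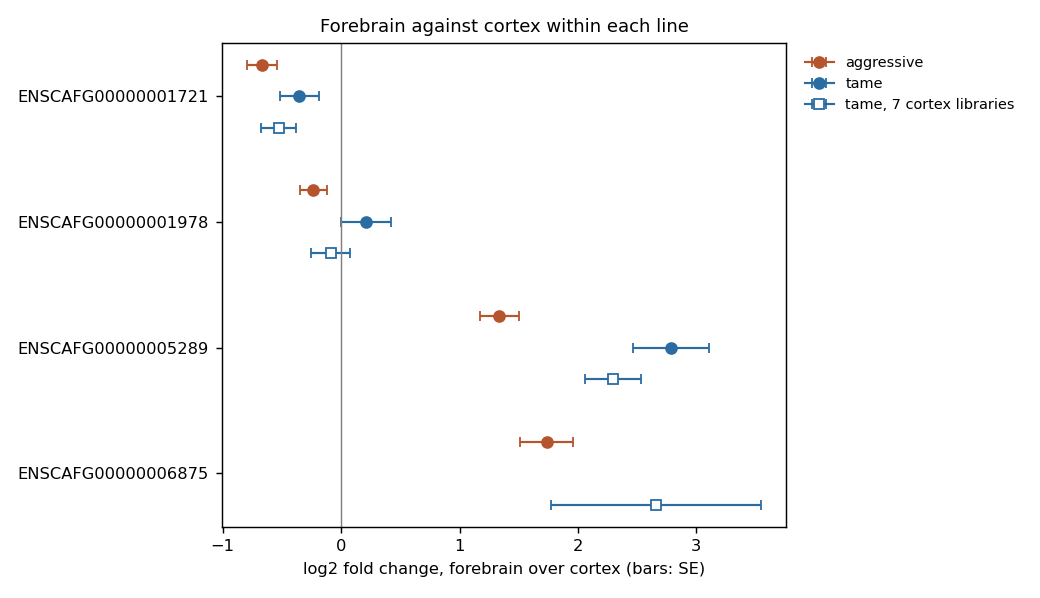
Log2 fold change of forebrain over cortex (x axis; bars are SE) for each gene (y axis) in aggressive foxes, in tame foxes, and in tame foxes without the 5 cortex libraries that stood apart; ENSCAFG00000006875 has no value with all tame libraries because it did not pass the filter. ENSCAFG00000005289 and ENSCAFG00000006875 lie to the right of 0 and ENSCAFG00000001721 to the left, while ENSCAFG00000001978 lies near 0 on either side.

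Across the 4 groups the order of the mean levels differed between the genes. For ENSCAFG00000001721 it ran from aggressive cortex (12.8 CPM) through aggressive forebrain (8.01) and tame cortex (7.14) to tame forebrain (5.57). The means of aggressive forebrain and tame cortex were closer than 1 SD of either group, and without the 5 libraries tame cortex (8.11) stood above aggressive forebrain. For ENSCAFG00000001978 it ran from aggressive cortex (8.97) and aggressive forebrain (7.58) to tame forebrain (5.14) and tame cortex (4.47), so that with all libraries the groups of a line were neighbours. The 2 tame groups differed by less than 1 SD, and their order turned without the 5 libraries (5.58 in tame cortex). For ENSCAFG00000005289 the forebrain groups (5.62 aggressive and 5.33 tame, within 1 SD of each other) stood over aggressive cortex (2.25) and tame cortex (0.773, or 1.11 without the 5). For ENSCAFG00000006875 the order was aggressive forebrain (7.09), tame forebrain (3.70), aggressive cortex (2.12) and tame cortex (0.503, or 0.614 without the 5), and the tame forebrain mean lay within 1 SD of that group from either neighbour.

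Cortex and forebrain libraries whose identifiers end in the same 2 digits could be set side by side, in 9 pairs of tame and 11 pairs of aggressive libraries. The labels do not say that such libraries come from the same fox. The highest of the 8 correlations, for 4 genes in 2 lines, was that of ENSCAFG00000006875 in tame foxes. Tame libraries ID182 and ID482 were the highest of the 9 in both, at 0.959 CPM in the cortex and 14.2 CPM in the forebrain. ID185, at 0.847 CPM, went with 3.15 CPM in ID485. At the low end ID192, at 0.10 CPM, went with 0.293 CPM in ID492, and ID186, at 0 CPM, with 0.328 CPM in ID486.

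For ENSCAFG00000006875 the correlation of log2 CPM over these 9 tame pairs was 0.861 (Pearson; exact permutation test, two-sided, p = 0.00211), and Spearman's rho was 0.917 (exact permutation test, two-sided, p = 0.00131). Without ID182 and ID185, the cortex libraries farthest from the median, r was 0.819 over 7 pairs. Of all 12695 genes, 99.8% had a lower r over the same pairs and the median r was -0.074. The p did not pass the adjustment over all genes (adjusted p = 0.936), and no gene did (0 genes at an adjusted p under 0.05, 3.62% at an unadjusted p under 0.05). The cortex values rest on 0 to 14 counts per library, and 4 of the 9 cortex libraries are among the 5 that stood apart, which leaves 5 pairs, over which no correlation is given. In those 5 the lowest cortex and forebrain CPM stood in the same pair (ID192 and ID492), as did the highest (ID185 and ID485). In counts the low end was a tie: ID184 and ID484 also had 1 and 4 counts. The lowest place therefore rests on the scaling to library size.

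Over the 11 aggressive pairs the correlation for the same gene was 0.179 (Spearman's rho 0.10; permutation tests, two-sided, p = 0.590 and p = 0.777), where the median gene had 0.209. The difference between the lines in this correlation was not tested. The other 6 correlations ran from -0.438 to 0.522 with permutation p-values from 0.0998 to 0.954. That of ENSCAFG00000001721 in tame foxes moved most with the libraries used: r was 0.115 over 9 pairs and 0.782 over the 7 without ID187 and ID191. In the 5 pairs without any library that stood apart, its lowest values, 6.15 CPM in ID183 and 3.63 CPM in ID483, fell in the same pair. Its highest, 8.70 CPM in ID185 and 6.61 CPM in ID485, did so too. For ENSCAFG00000001978 r in tame foxes was -0.438 over 9 and -0.254 over 7 pairs, and for ENSCAFG00000005289 it was -0.022 and -0.130. In the 5 pairs without the libraries that stood apart, ENSCAFG00000001978 went the other way. Its highest cortex value, 6.75 CPM in ID183, went with its lowest forebrain value, 3.48 CPM in ID483. Its lowest cortex value, 4.79 CPM in ID189, went with its highest forebrain value, 6.57 CPM in ID489. For ENSCAFG00000005289 the lowest values fell in the same pair (ID185 and ID485) and the highest did not.

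ENSCAFG00000005289 and ENSCAFG00000006875 were higher in the forebrain library in 9 of 9 tame and 11 of 11 aggressive pairs, and in all 5 tame pairs without the libraries that stood apart. ENSCAFG00000001721 was lower in the forebrain library in 7 of 9 tame and 11 of 11 aggressive pairs, and in 5 of those 5. ENSCAFG00000001978 was higher in it in 5 of 9 tame pairs (2 of those 5) and in 3 of 11 aggressive pairs. The share of all genes with the same direction in every pair was not counted. Between regions 68.5% of genes were called in aggressive and 43.5% in tame foxes. The pairs reuse the cortex values by which the genes were picked, so these counts are descriptions.

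**Figure D4:**
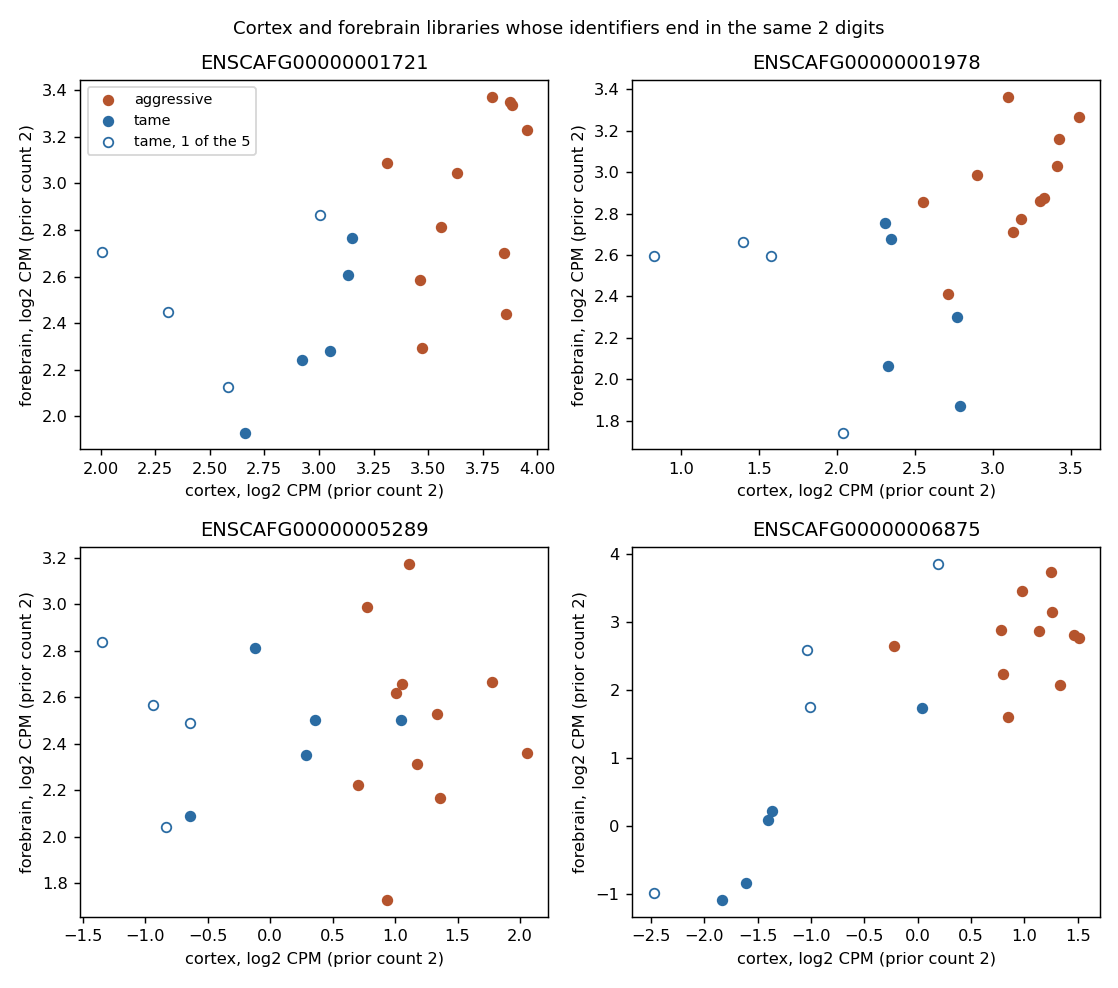
Log2 CPM (prior count 2) of each gene in the forebrain library (y axis) against the cortex library whose identifier ends in the same 2 digits (x axis), for 11 aggressive and 9 tame pairs, with open points for pairs that include 1 of the 5 cortex libraries that stood apart. For ENSCAFG00000006875 the tame points run from low in both regions to high in both (r 0.861), and the aggressive points form a cloud (r 0.179).

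After subtraction of the group mean, the 6 pairwise correlations of log2 CPM ran from -0.249 to 0.273 over the 22 forebrain libraries, 3 of them below 0. Over the 19 cortex libraries other than the 5 all 6 were above 0, from 0.0606 to 0.560, highest between ENSCAFG00000001721 and ENSCAFG00000006875 and next between ENSCAFG00000001978 and ENSCAFG00000005289 (0.517). For the pair with 0.560, ID181 was the highest tame cortex library for both genes (10.6 and 2.62 CPM). ID240 was the lowest aggressive one for both (9.75 and 0.676 CPM). Values from the same library share its depth and RNA, and other gene pairs were not correlated for comparison, so these are descriptions.

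The gene whose levels followed each of the 4 most closely was sought among 12695 genes over the 41 libraries that leave out the 5. It was ENSCAFG00000014869 for ENSCAFG00000005289 (r = 0.872), ENSCAFG00000006851 for ENSCAFG00000006875 (r = 0.852), ENSCAFG00000011732 for ENSCAFG00000001721 (r = 0.807) and ENSCAFG00000008802 for ENSCAFG00000001978 (r = 0.797). Over all 46 libraries these values were 0.720, 0.773, 0.582 and 0.745. The libraries fall into 2 regions and 2 lines, so differences between the groups enter these correlations, and they describe likeness of level alone.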

How the data were processed

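The authors deposited estimated counts per dog gene identifier, 1 table per region; 4.36% of the cortex and 4.43% of the forebrain values were fractional. The submitters' processing notes name CASAVA 1.8.2, FastQC, Trimmomatic, BWA, bedtools, edgeR and the dog build canFam3, without roles. Per the labels' protocols, libraries were TruSeq poly(A).

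Counts were rounded. Each comparison was fitted with edgeR 4.0.16 (R 4.3.3; filterByExpr, minimum count 10; TMM; quasi-likelihood F-test, robust), using only its own 2 groups, with Benjamini-Hochberg adjustment and a threshold of 0.05. SE is the log2 fold change over the root of F. Log2 CPM used a prior count of 2. Alternatives were other scalings and filters, DESeq2 1.42.0, limma-voom (limma 3.58.1), a replicate block and fits without single libraries. On simulated counts the forebrain test recovered 82.0% of genes raised 1.5-fold in tame foxes and 90.0% raised 2-fold (50 genes each, 12950 tested). That simulation called 196 genes against 12 in the real forebrain fit, which makes its adjusted threshold easier to pass. Falls of 1.5-fold or 2-fold were not simulated, so these shares do not give the power for the 4 genes.

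The labels do not state that libraries are separate foxes, so p-values measure the spread between libraries. The 4 genes and the tests were chosen with earlier results of these data known; the rule named these 4 genes and, for each, the gene of highest Pearson correlation. Marker lists of symbols could not be used.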

Additional observations from a re-analysis of the deposited data

How the results depend on the processing

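In the cortex the log2 fold changes of the 4 genes stayed below 0 under all 7 alternatives; 1 moved by more than the SD between libraries, ENSCAFG00000006875 under limma-voom with quality weights (-2.99). The number of cortex genes called, 55, was 86 with upper-quartile scaling (55 shared) and 163 with limma-voom (47 shared). DESeq2 called 898 of the 5069 genes to which it gave an adjusted p, and shared 12 with the 55. Without the 5 libraries 30 were called (15 shared with the 55). Fits without 1 library called 21 to 141, lowest without ID239 and highest without ID181. Over those fits the fold changes ran from -0.89 to -0.78 for ENSCAFG00000001721, -1.07 to -0.92 for ENSCAFG00000001978, -1.73 to -1.41 for ENSCAFG00000005289 and -2.62 to -1.93 for ENSCAFG00000006875.

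In the forebrain DESeq2 called 54 genes against 12 and brought ENSCAFG00000001978 past the threshold (-0.57). Without 1 library, 8 to 16 genes were called and none of the 4 passed in 22 fits; their fold changes ran from -0.59 to -0.48, -0.61 to -0.51, -0.13 to -0.0073 and -1.52 to -0.83, in order of identifier.

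Between regions, the value of ENSCAFG00000001978 in aggressive foxes passed the threshold with limma-voom (-0.26), and in tame foxes turned to -0.088 without the 5 libraries. ENSCAFG00000001721 in tame foxes passed with size factors (-0.41), DESeq2 (-0.42), limma-voom (-0.48) and without the 5 libraries (-0.53). Without 1 library these values ran from -0.28 to -0.19, from 0.12 to 0.28 and from -0.42 to -0.29. With libraries sharing their last 2 digits as a replicate block, no call changed among the 4 genes in aggressive and the 3 tested in tame foxes (ENSCAFG00000001721 at -0.76 in aggressive and -0.32 in tame foxes), and 8801 and 4114 genes were called against 8517 and 4855 without the block. Deviations correlated above 0.1 in 10 of 11 aggressive pairs (-0.0027 to 0.275) and in 4 of 9 tame pairs (-0.266 to 0.324). Tame deviations were taken from the mean of the whole group, the 5 libraries included. Not every pair was over 0.1 in either line and the labels give no link, so the main fits used no replicate block. The correlations and pair counts above do set these libraries side by side. Where a value changed, the cause was not tested. Depth limits ENSCAFG00000005289 and ENSCAFG00000006875 most, at 1 to 19 and 0 to 22 counts in tame cortex.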
